A study of Rattus norvegicus with 100 samples.

Results

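The genes described here build ribosomes in the nucleolus, together with the RNA helicase families from which many of the building factors come. They were chosen by symbol: probe sets assigned to 1 gene whose symbol starts with Nop, Nol, Rrp, Utp, Polr1, Exosc, Ddx or Dhx followed by a digit or letter, with Gnl3, Tsr1, Mybbp1a, Trmt61a, Ncl, Npm1, Fbl and Dkc1 added by name. Of 10411 genes with a probe set of their own on the array, 77 matched, and 68 of these had a value on at least 35 of 70 uterus arrays or at least 15 of 30 pituitary arrays. All 68 met the rule in the uterus and 64 met it in the pituitary. Just inside the limit lay Nop14, with a value on 41 of 70 uterus arrays and on none of the pituitary. Just outside it lay Ddx25, with a value on 14 of 30 pituitary arrays and on no uterus array, then Ddx19b and Rrp15, with 23 and 22 of 70 uterus arrays. Npm1, which encodes nucleophosmin, is not a member because its probe sets are shared with the pseudogene Npm1-ps9.

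The arrays came from the uterotrophic assay, in which immature female rats receive an estrogenic compound and the growth of the uterus is followed. Here it was ethinylestradiol (EE), an estrogen made by synthesis, and every time had control arrays of its own. The uterus was sampled at 2, 4, 8, 24, 28, 48 and 72 h, each with 5 arrays of EE and 5 of control, and the pituitary gland at 4, 8, 24, 48 and 72 h with 3 and 3. The sources used here do not give the strain, the age in days, the dose, the route or the dosing schedule, and they name the control treatment only as control. Total RNA of the whole organ was hybridised to 100 Affymetrix RAE230A arrays. Values are linear intensities, and differences are between EE and control on the log2 scale after an offset of 30.4 was added, so that folds of dim genes are understated. "Rose" and "fell" mean an adjusted p under 0.05 in the limma-type fit over all genes. Nothing in the labels says that the arrays of a group came from separate animals other than their running numbers, so the p-values measure the spread between these samples.

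A ribosome begins as one long ribosomal RNA transcribed by RNA polymerase I inside the nucleolus. Small nucleolar RNA-protein particles (snoRNPs) modify this RNA, the small subunit processome folds and cuts the part that becomes the 40S subunit, and other factors, many of them DEAD-box or DEAH-box helicases, mature the 60S subunit, while the exosome trims and degrades RNA from its 3′ end. Growing cells need many ribosomes, and estrogen is a growth signal for the immature uterus. By known role the 68 members comprised 6 RNA polymerase I subunits, 6 proteins of the snoRNPs and 6 exosome subunits. Another 15 were factors of the small subunit processome and 40S maturation, and 14 of 60S maturation. The rest were 19 other helicases, not assigned to a step of ribosome assembly, and 2 genes of other known roles. The last 2 are Trmt61a, the catalytic subunit of a tRNA methyltransferase, and Nol3, a cytosolic inhibitor of cell death. Several of the other helicases are known for work outside the nucleolus, in splicing, export, decay or translation of messenger RNA.

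The promoters of the 3 members with the largest rise at 4 h in the uterus and of the member with the largest fall at 8 h are given here because these genes moved furthest in each direction. They run from 250 bases before to 50 after the RefSeq start of transcription in build GRCr8, read along the gene, at chr6:136558167-136558466 (plus strand) for Trmt61a, chr3:137929929-137930228 (plus) for Nop56, chr16:6219733-6220032 (minus) for Gnl3 and chr1:85765040-85765339 (minus) for Nop53. Capitals mark the E-box CACGTG, the Ets letters CCGGAAG and the estrogen response element half-site GGTCA, each searched on both strands.
Trmt61a: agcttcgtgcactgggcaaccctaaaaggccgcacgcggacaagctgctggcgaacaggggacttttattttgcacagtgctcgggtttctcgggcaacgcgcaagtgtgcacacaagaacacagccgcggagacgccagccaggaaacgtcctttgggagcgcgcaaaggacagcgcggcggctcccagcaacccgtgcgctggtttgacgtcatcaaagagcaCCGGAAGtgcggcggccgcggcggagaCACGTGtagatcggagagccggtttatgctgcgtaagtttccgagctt
Nop56: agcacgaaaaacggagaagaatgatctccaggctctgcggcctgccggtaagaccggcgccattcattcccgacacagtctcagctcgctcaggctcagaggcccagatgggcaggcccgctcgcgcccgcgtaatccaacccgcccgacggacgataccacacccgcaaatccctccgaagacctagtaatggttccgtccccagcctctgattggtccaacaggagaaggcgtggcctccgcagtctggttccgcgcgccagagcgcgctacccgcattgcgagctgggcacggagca
Gnl3: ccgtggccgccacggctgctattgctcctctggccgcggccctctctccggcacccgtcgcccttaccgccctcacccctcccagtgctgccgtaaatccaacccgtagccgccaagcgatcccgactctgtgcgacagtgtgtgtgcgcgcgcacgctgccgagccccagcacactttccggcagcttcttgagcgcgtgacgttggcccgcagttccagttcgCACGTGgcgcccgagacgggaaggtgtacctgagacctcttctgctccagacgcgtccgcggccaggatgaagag
Nop53: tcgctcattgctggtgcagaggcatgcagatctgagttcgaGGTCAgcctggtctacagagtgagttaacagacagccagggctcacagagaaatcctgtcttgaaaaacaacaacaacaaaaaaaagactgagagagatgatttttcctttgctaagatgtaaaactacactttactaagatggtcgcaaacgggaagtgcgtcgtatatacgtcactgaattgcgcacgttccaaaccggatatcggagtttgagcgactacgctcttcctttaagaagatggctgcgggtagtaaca
Trmt61a held an E-box that began at base 3 after the start and the Ets letters at base -25, Gnl3 an E-box at base -25 and Nop53 a half-site at base -209, and none of the 3 motifs was found in the Nop56 window. RefSeq gave a promoter for 63 of the 68 members (not for Ddx24, Ddx52, Ddx6, Exosc4 and Nol3), and the first listed start of each gene was used. The E-box, the letters bound by Myc and its relatives, was in 13 of 63 member promoters (20.6%) and in 6.65% of 27457 promoters of the same length. It was in 12 of the 49 promoters of members that rose at 8 h and in 1 of the 14 of members that did not. The Ets letters were in 28 of 63 (44.4%) against 9.22% of all promoters, and TATAAA in 1 of 63 against 14.3%. The GGTCA half-site was in 25 of 63 (39.7%) against 40.2%, and the full palindromic estrogen response element, which contains 2 half-sites, in 0 of 63 against 0.0255%. All these promoters were used for comparison, whether or not the gene had values here, and the members were not set against other expressed genes. A match of letters is a description of the window and not a bound site.

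In the uterus most members were higher with EE than in controls at 4 and 8 h, and most of those tested at 72 h were lower. Of the 52 that rose at 8 h, 14 did not rise at 24 h and rose at 28 h. Of the 45 of them that could be tested at 72 h, 26 fell there. Such patterns over several times were counted for members only, so no share of all genes stands beside them. At 8 h 52 of 68 members rose and 3 fell, against 28.9% of all genes that rose and 35.5% that fell, and the median difference of the members was 0.56 (log2) against -0.04 for all genes. The EE and control arrays did not overlap, with EE higher, for 50 of the 68, against 23.7% of all genes. At 72 h 37 of 61 members tested fell and 3 rose, against 36.9% and 23.3% of all genes, with a median of -0.27. Over the 7 times the effect of EE changed in 58 of the 60 members tested at all of them, against 81.7% of genes. In whole-organ RNA, fewer cells of a type and less of a transcript per cell cannot be told apart.

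**Figure D1:**
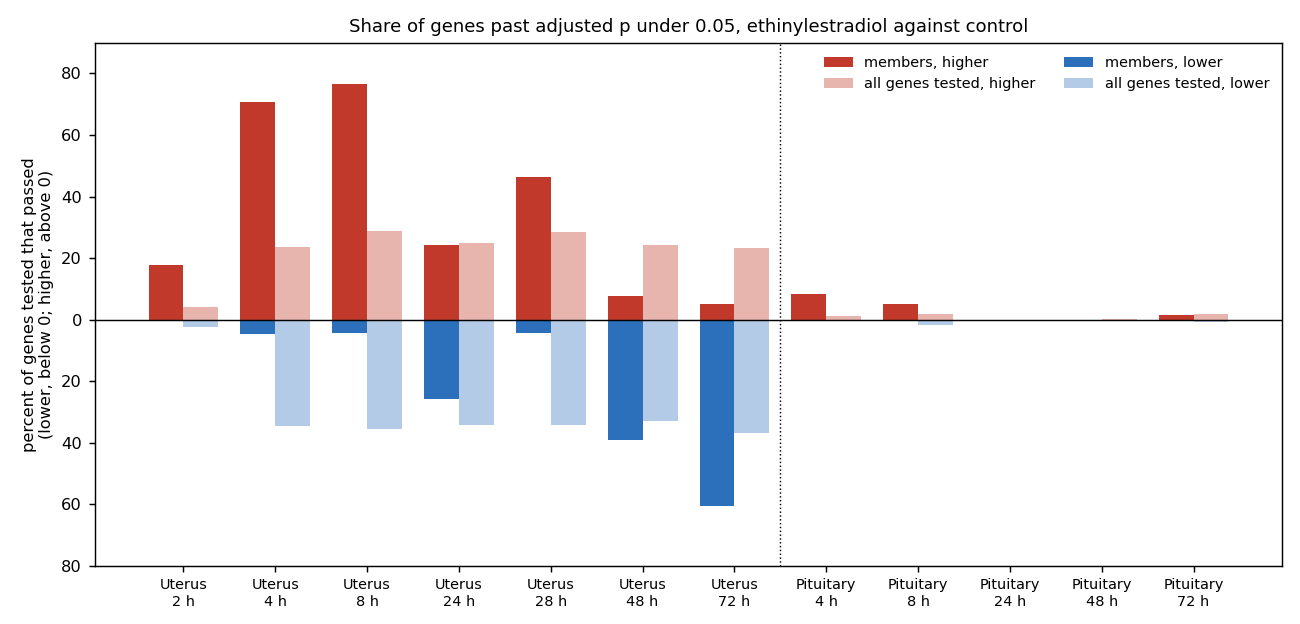
Percent of the genes tested at each time that passed an adjusted p under 0.05, drawn above 0 for genes higher with ethinylestradiol and below 0 for genes lower, for the nucleolar and ribosome assembly genes (dark) and for all genes tested (pale). The dark bars exceed the pale ones on the upper side at 2, 4, 8 and 28 h in the uterus and on the lower side at 48 and 72 h.

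The first rises were seen at 2 h, when 12 of 68 members rose and none fell, against 4.02% and 2.37% of all genes. The 12 were Trmt61a, Gnl3, Nop56, Utp3, Ddx21, Nop58, Tsr1, Nop16, Nolc1, Ddx5, Utp4 and Polr1c, and all 12 also rose at 4 h. On its other probe set Ddx5 differed by 0.17 at 2 h and did not pass. Gnl3 encodes nucleostemin, a nucleolar GTPase of 60S assembly and of dividing cells. Its intensity at 2 h was 261, 284, 272, 273 and 325 on the EE arrays and 179, 163, 169, 187 and 145 on the control arrays. The groups were apart, and the difference was 0.65 ± 0.07 (log2, SE, n = 5 and 5), a 1.57-fold rise with adjusted p = 2.4e-10. Trmt61a was 121 to 222 with EE and 49.8 to 112 in controls, a difference of 0.77 ± 0.12. When only the arrays of 2 h entered the fit, 7 members were called in place of 12.

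At 4 h 46 of 65 members tested rose and 3 fell, against 23.6% and 34.5% of all genes. Between 2 and 4 h the effect of EE grew in 42 of 65 members and shrank in 2, against 14.8% and 18.2% of genes, with Tsr1 gaining 1.25 ± 0.11 and Nop58 1.19 ± 0.11 (log2). From 4 to 8 h it grew further in 8 members and shrank in 1, against 9.28% and 10.3%, and across the 65 members the effects at 4 and 8 h, which share no arrays, had a Pearson r of 0.946, against 0.853 over 6658 genes; genes read on the same arrays are not independent of each other. Exosc4, Ddx49 and Nop10 were among the 8, and Ddx5 was the one whose effect shrank, by 0.28 ± 0.08.

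**Figure D2:**
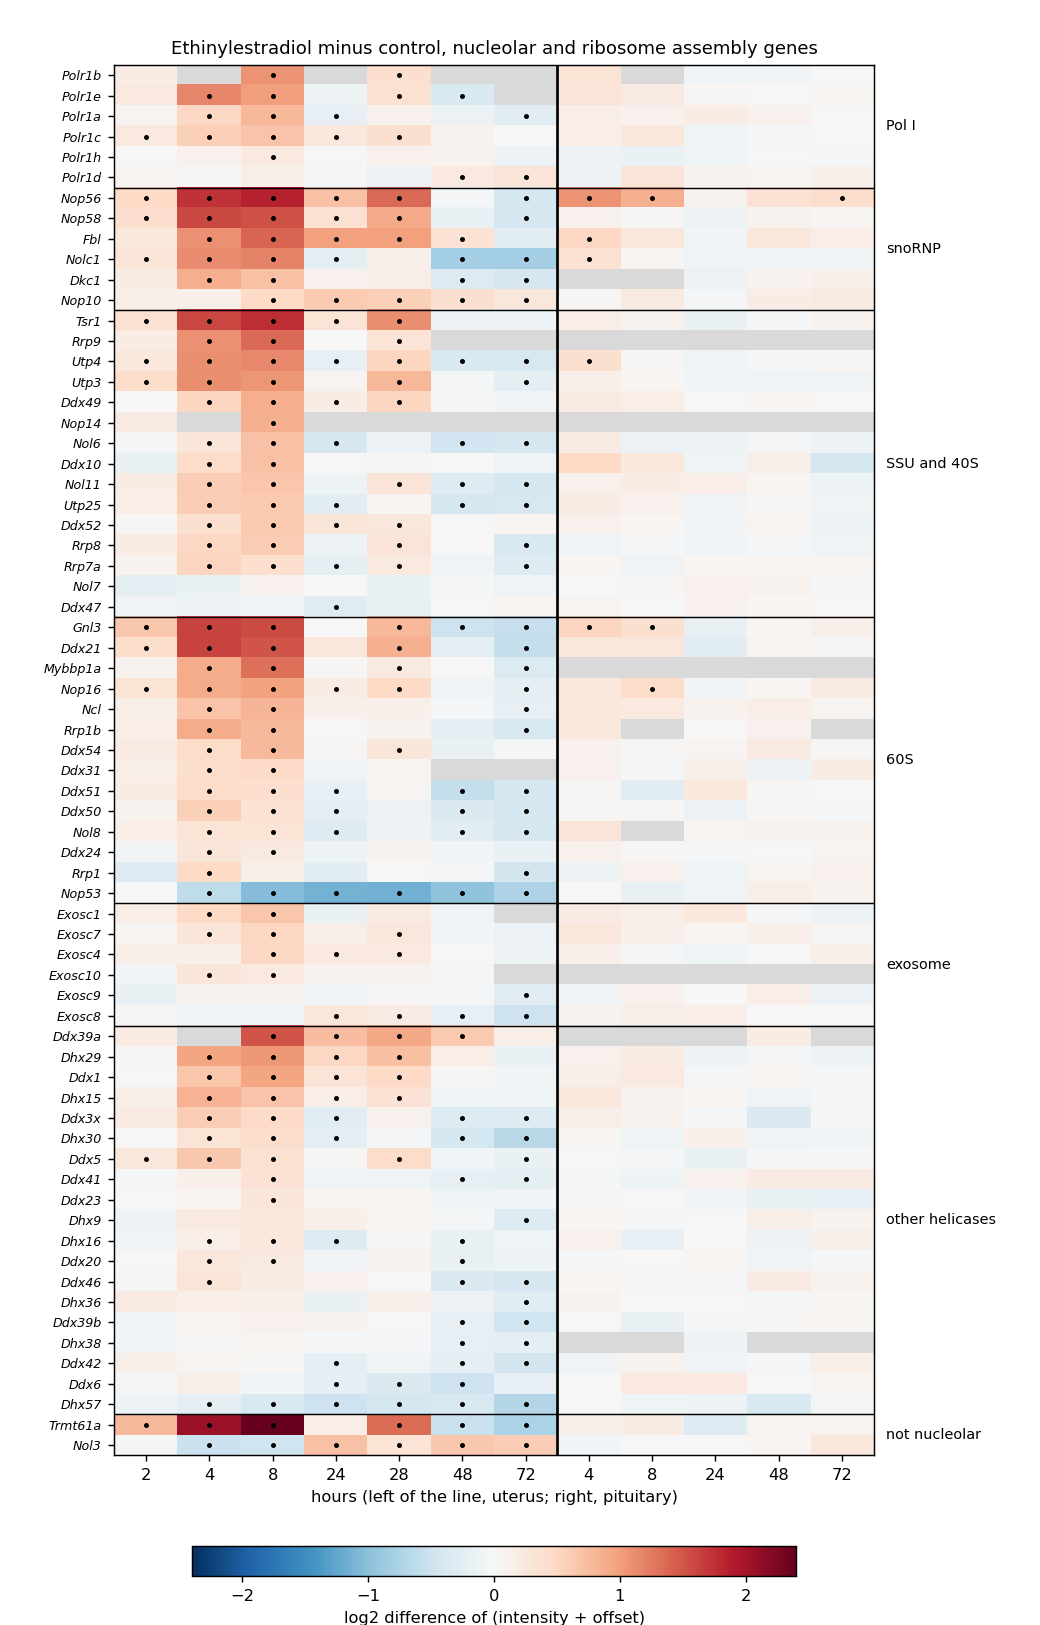
Log2 difference between ethinylestradiol and control for each of the 68 genes (rows, grouped by role and ordered by the difference at 8 h) at each time in the uterus and the pituitary; dots mark differences that passed, grey cells had too few values to test. Red is the main colour of the uterus columns of 4 and 8 h, with Nop53, Dhx57 and Nol3 in blue, and the pituitary columns are pale except for Nop56.

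RNA polymerase I itself was represented by 6 subunits, of which 5 rose at 8 h and none fell. Polr1b, a subunit of the catalytic core, read 114, 135, 123, 132 and 133 on the EE arrays and 46.98, 51.4, 39.1 and 38.8 on the 4 control arrays with a value. All EE values were above all control values, and the difference was 1.08 ± 0.08 (2.12-fold, adjusted p = 2.2e-15). At 4 h Polr1b had a value on 2 of 5 control arrays, 51.3 and 44.2, against 106 to 149 on all 5 EE arrays, and was not tested there. Polr1e, a subunit of a heterodimer particular to polymerase I, rose by 1.16 ± 0.09 at 4 h, from 29.6 to 43.9 in controls to 100 to 135 with EE. Polr1a, the largest subunit, rose by 0.80 and Polr1c, shared with RNA polymerase III, by 0.68 at 8 h. Polr1d, the other shared subunit of this group, differed by 0.15 at 8 h and did not pass. On its other probe set Polr1d fell by 0.41 at 8 h, so that gene's early difference depends on the probe set.

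The snoRNP proteins had the highest median of the role groups at 8 h, 1.29 (log2), and all 6 rose. Nop56, a core protein of the box C/D particles that guide RNA methylation, read 651, 646, 601, 705 and 688 with EE at 8 h and 195, 135, 163, 132 and 184 in controls. The lowest EE array was far above the highest control array, and the difference was 1.85 ± 0.11 (3.61-fold, n = 5 and 5, adjusted p = 1.8e-23). Its partner Nop58 rose by 1.52 ± 0.08, from 185 to 217 in controls to 600 to 700 with EE. Fbl, fibrillarin, the methyltransferase of the same particles, rose by 1.40 ± 0.13 at 8 h, with EE arrays at 602, 417, 589, 612 and 473 and control arrays at 209, 185, 160, 189 and 178. The EE values of Fbl were widely spread yet all above the controls. Dkc1, dyskerin, the pseudouridine synthase of the H/ACA particles, rose by 0.87 ± 0.13 at 4 h, when EE arrays ran from 177 to 380 and control arrays from 90.9 to 129. Nop10, a small H/ACA protein, differed by 0.12 at 4 h without passing and rose by 0.48 at 8 h, later than its partners. Nolc1, a chaperone of both particle types, rose by 1.19 ± 0.08 at 8 h on the brighter of its probe sets and by 2.18 on the other.

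Of 15 members that act on the small subunit, 13 rose at 8 h and none fell. Tsr1, a factor of late 40S maturation, read 516, 518, 514, 591 and 570 with EE at 8 h and 131, 141, 132, 152 and 129 in controls. The groups were apart by a wide gap, and Tsr1 rose by 1.77 ± 0.08 (3.42-fold, adjusted p = 1.8e-28). Rrp9, which binds the U3 small nucleolar RNA, rose by 1.35 ± 0.07, from 117 to 120 in controls to 297 to 395 with EE. Utp4 and Utp3, proteins of the processome, rose by 1.15 and 1.05, and Nol6 and Nol11, of the same assembly, by 0.71 and 0.67. Nop14 rose by 0.85 at 8 h and had too few values to test at 4 h and at every time from 24 h on. The 2 that did not pass at 8 h were Nol7, at 0.11, and the helicase Ddx47, at -0.06, the smallest difference of the group. Nol7 was the only member with no call at any uterus time.

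Among the 14 members of 60S maturation 12 rose at 8 h, 1 fell and 1, Rrp1, did not pass. Gnl3 read 520.0, 443, 447, 478 and 517 with EE at 4 h and 123, 149, 120, 155 and 130 in controls. It rose by 1.63 ± 0.07 at 4 h (3.09-fold, adjusted p = 4.4e-28) and by 1.56 at 8 h. Ddx21, a helicase that joins polymerase I transcription to RNA processing, rose by 1.63 at 4 h and by 1.51 ± 0.13 at 8 h, when EE arrays read 246 to 324 and controls 60.4 to 93.6. Mybbp1a, a nucleolar protein that binds Myb, rose by 1.31 ± 0.08 at 8 h, from 220 to 271 in controls to 619 to 706 with EE. Ncl, nucleolin, the abundant nucleolar RNA-binding protein, rose by 0.81 ± 0.08, with EE arrays at 984, 819, 913, 998 and 830 and controls at 488, 484, 505, 492 and 548. All EE values of Ncl were above all control values, a 1.76-fold rise.

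Exosome subunits moved less, with 4 of 6 risen at 8 h, none fallen and a median of 0.36. Exosc1, a cap subunit, rose most, by 0.67 ± 0.10, from 76.3 to 109 in controls to 133 to 179 with EE. Exosc8 differed by -0.07 and did not pass. Of 19 helicases outside the ribosome groups 11 rose at 8 h, 1 fell and 7 did not pass, with a median of 0.26. Ddx39a, which serves messenger RNA export, rose by 1.51 ± 0.09, with EE arrays at 400.0, 453, 320, 348 and 364 and controls at 116, 103, 113, 107 and 119. At 4 h it had a value on 2 of 5 control arrays, 91.0 and 103, against 222 to 272 on all EE arrays, and was not tested. Dhx29, a helicase of translation initiation, rose by 1.05, Ddx1 by 0.94 and Dhx15, a splicing helicase, by 0.68. The medians of the role groups at 8 h thus ran from 0.26 for these helicases to 1.29 for the snoRNP proteins, with no test made between groups.

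The largest rise of all was that of Trmt61a, whose tRNA methylation is not a step of ribosome assembly. It read 425, 439, 431, 447 and 469 with EE at 8 h and 58.8, 60.01, 51.6, 73.9 and 58.1 in controls. The difference was 2.38 ± 0.12, 5.21-fold on the offset scale (adjusted p = 2.4e-26), with the groups far apart.

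**Figure D3:**
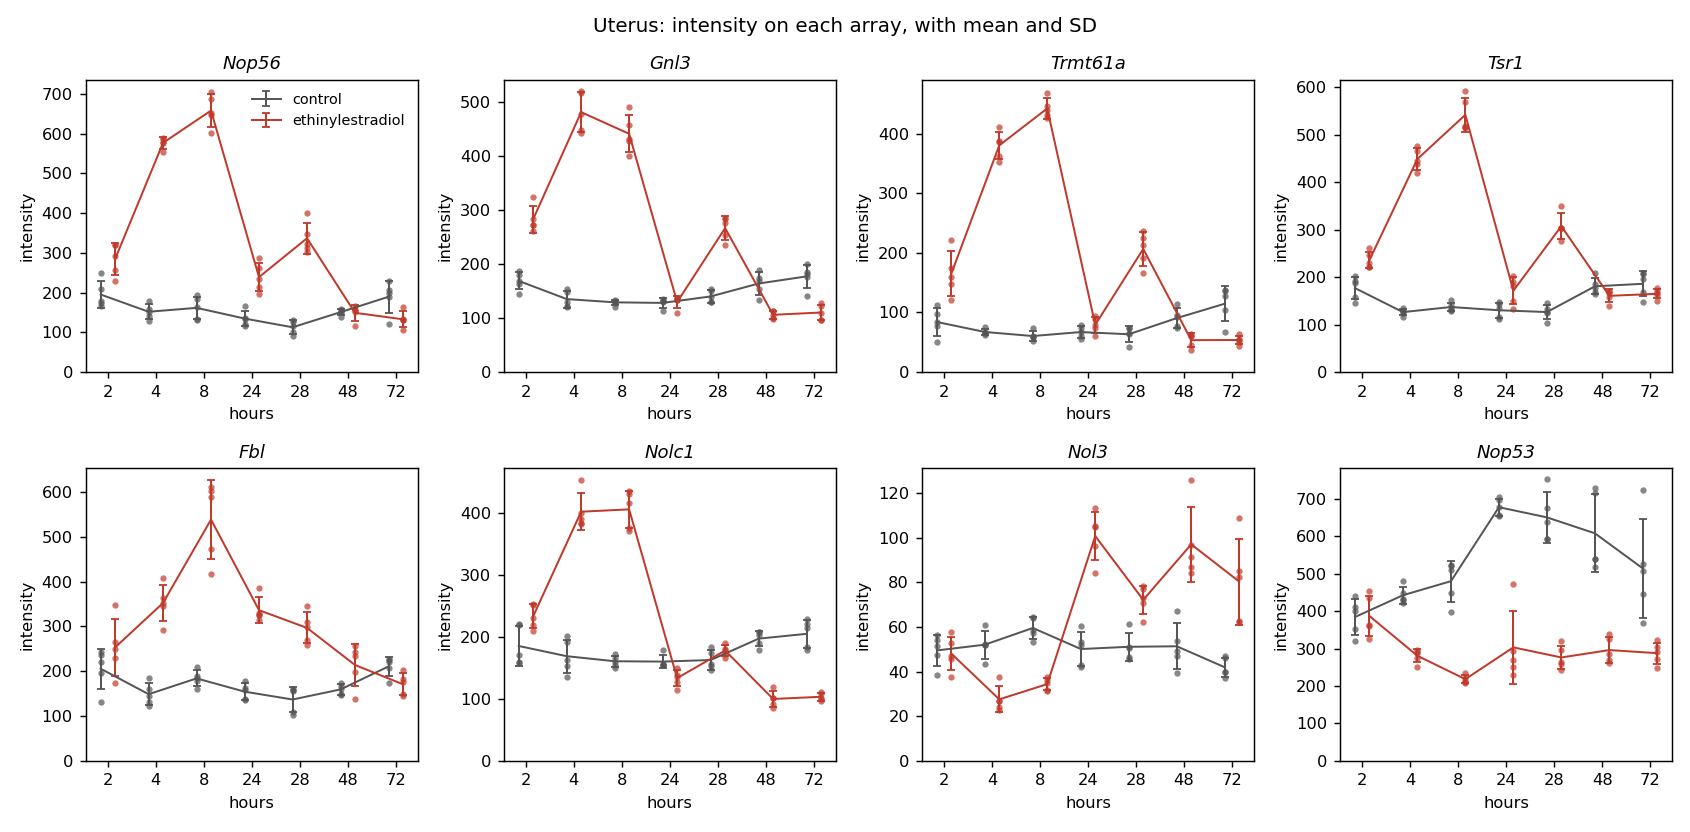
Intensity of 8 genes on each uterus array (points) at each time, with the group mean and SD (line and bars), for ethinylestradiol and control; each axis starts at 0. With EE, Nop56, Gnl3, Trmt61a, Tsr1, Fbl and Nolc1 are highest at 4 or 8 h, Nop56, Gnl3, Trmt61a and Tsr1 are higher at 28 h than at 24 h, and Nop53 lies below control from 4 h on.

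At 8 h the arrays also differed in general measures. The share of blank cells was 36.9 to 39.1% on EE arrays and 33.7 to 35.8% on control arrays, and the log2 difference between the 3′ and 5′ probe sets of Actb, a sign of RNA length, was 0.07 to 0.30 with EE and 0.36 to 0.67 in controls. Of 10 listed uterine epithelium genes 5 rose and 2 fell at 8 h, of 9 smooth muscle genes 1 rose and 3 fell, and of 6 macrophage genes tested 1 rose and 1 fell. The part of these differences in the members' rise was not tested.

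Between 8 and 24 h the effect shrank in 48 of 66 members and grew in 2, against 22.7% and 23.6% of all genes. At 24 h 16 of 66 members were higher and 17 lower, against 24.9% and 34.4% of genes, and the members' median difference was 0.00 (log2). Gnl3 read 138, 109, 135, 133 and 133 with EE and 112, 132, 129, 131 and 136 in controls. The groups overlapped, with a difference of 0.01, and the effect was below that at 8 h by 1.55 ± 0.10 (adjusted p = 7.6e-19). Of the 52 members that rose at 8 h, 12 fell at 24 h, among them Nol6 (-0.41), Utp4 (-0.20) and Nolc1. Nolc1 was lower by 0.22 at 24 h on its brighter probe set and higher by 0.56 on the other, both past the threshold. The calls of Utp4 and Nolc1 at 24 h were each lost without 1 of the 10 arrays, and that of Nolc1 also with arrays centred on their median. The 16 that rose at 24 h all rose at 28 h too. Effects at 24 and 28 h had a Pearson r of 0.76 across 66 members, against 0.881 over 6789 genes. Among the 16 was Fbl, with EE arrays at 330, 326, 325, 386 and 314 and controls at 179, 163, 158, 135 and 137. Fbl thus stayed apart from its controls, by 0.99 ± 0.13 (1.99-fold). With each array centred on its median the split at 24 h was 18 higher and 12 lower. The split of all genes under centring is not given for this time.

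At 28 h the rise had returned in part: 31 of 67 members rose and 3 fell, against 28.5% and 34.3% of genes. The effect was larger at 28 h than at 24 h in 18 of 66 members and smaller in 1, against 5.13% and 3.17%. Nop56 read 303, 311, 400.3, 323 and 347 with EE at 28 h and 90.5, 127, 99.7, 131 and 116 in controls, a difference of 1.36 ± 0.11 (2.57-fold). Its groups were apart again, as were those of Tsr1 (276 to 351 against 104 to 145, a difference of 1.11) and Gnl3 (235 to 285 against 129 to 154, a difference of 0.80). Trmt61a gained 1.17 ± 0.17 between 24 and 28 h (adjusted p = 5.5e-07), and Utp4 0.72 ± 0.09. Of the 12 members that rose at 2 h, 11 rose at 28 h, and the other was Nolc1, at 0.11 on its brighter probe set and 1.25 on the other. For Ddx5, a helicase of transcription and splicing, the probe sets disagreed at 28 h, with a rise of 0.45 on the brighter one and a fall of 0.39 on the other, which also fell by 0.97 at 24 h. Across 67 members the effects at 8 and 28 h had a Pearson r of 0.853, against 0.725 over 6658 genes.

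After 28 h the effect turned lower for many members. It dropped between 28 and 48 h in 31 of 64 members and grew in 1, Polr1d, against 14% and 12.8% of genes. At 48 h 25 of 64 fell, 5 rose and 34 did not pass, against 33% of genes that fell and 24.2% that rose, so that the share that fell was near that of all genes. Of the members 21 fell at both 48 and 72 h, a pattern not counted for all genes. Effects at 48 and 72 h had a Pearson r of 0.806 across 61 members, against 0.925 over 6674 genes. Between 48 and 72 h none of 61 members passed the limma-type test of the change in effect, 12 had an unadjusted p under 0.05, and 0.509% of all genes passed. By role, 11 of 13 members of 60S maturation tested at 72 h fell, 7 of 13 of the small subunit and 4 of 6 snoRNP proteins. So did 11 of 19 other helicases, 2 of 4 exosome subunits and 1 of 4 polymerase I subunits. The share of all genes that fell at 72 h was 36.9%, and groups of 4 genes are too small to set against it. Groups did not overlap, with EE lower, for 22 of 61 members (36.1%), against 24.3% of all genes.

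Nolc1 fell most at 72 h. It read 100.02, 95.7, 101, 112 and 107 with EE and 178, 229, 213, 220 and 183 in controls, a difference of -0.81 ± 0.08 (1.75-fold lower, adjusted p = 3.5e-14), and its other probe set fell by 0.58. Trmt61a, the gene with the largest early rise, read 51.01, 44.2, 54.2, 54.9 and 64.6 with EE and 103, 137, 127, 138 and 68.05 in controls, a difference of -0.76 ± 0.12. The EE arrays of both genes lay below all controls. Gnl3 fell by 0.56 ± 0.07 and Nop56 by 0.42 ± 0.11, the latter with overlapping groups (107 to 163 against 121 to 229). Dhx30, a helicase of mitochondrial ribosome assembly, fell by 0.66 ± 0.09, with 88.2, 114 and 88.1 on the 3 EE arrays with a value and 157 to 189 on the controls. Of the 45 members that rose at 8 h and were tested at 72 h, 26 fell at 72 h. A rise at 2, 4, 8 and 28 h and a fall at 72 h were seen for 9 members (Ddx21, Ddx5, Gnl3, Nop16, Nop56, Nop58, Trmt61a, Utp3 and Utp4). The falls of Ddx5, Nop16 and Utp3, -0.17, -0.24 and -0.24, were lost with arrays centred on their median. Ddx5 had this pattern on its brighter probe set only. Its other probe set differed by 0.17 at 2 h without passing and fell by 0.39 at 28 h. That probe set also fell by 1.21 at 48 h and by 1.18 at 72 h. Another 9 fell at 72 h without an early rise, among them Exosc8, at -0.49 ± 0.08, with 56.3 to 67.01 on EE arrays and 88.6 to 109 on controls.

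**Figure D4:**
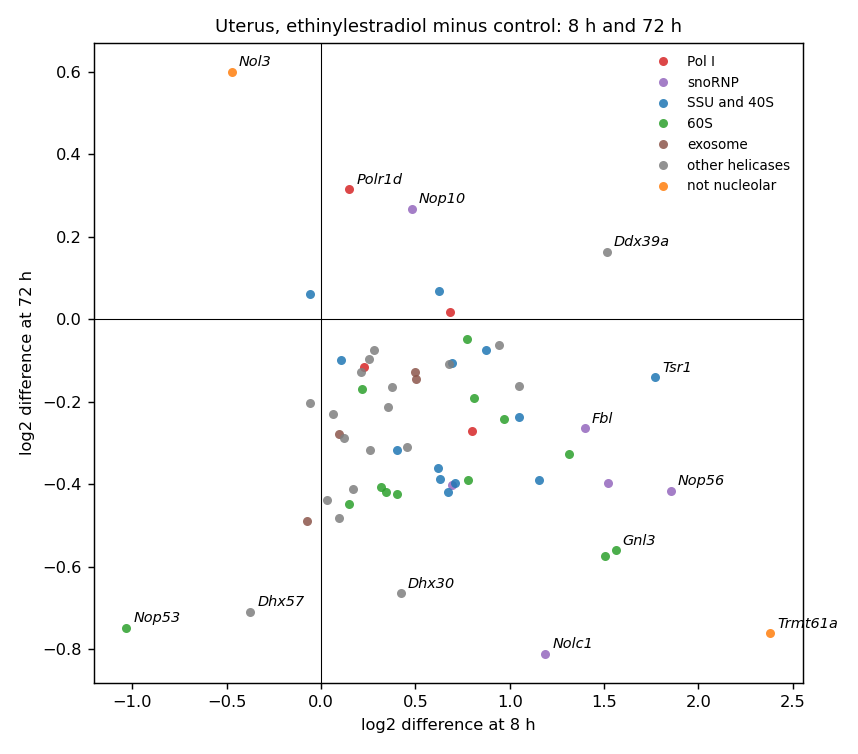
Log2 difference between ethinylestradiol and control in the uterus at 8 h (x) and at 72 h (y), 1 point per gene tested at both times, coloured by role. Most points lie to the right of 0 and below 0. Across the 61 genes the differences had a Pearson r of -0.15, against 0.335 over 6497 genes.

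Markers of other cells moved at the same times. At 72 h all 6 macrophage genes tested rose, with summed levels of 3785 to 6280 on EE arrays and 1119 to 1554 on controls, and 8 of 10 uterine epithelium genes rose, with sums of 5934 to 8356 against 1799 to 2283. Of 9 smooth muscle genes 5 rose and 1 fell, with overlapping sums of 14324 to 17586 and 11473 to 15471. Of 2 blood cell genes tested at 72 h, 0 rose and 2 fell, with overlapping sums of 626.5 to 1336 with EE and 1033 to 2217 in controls. Of 2 eosinophil and mast cell genes tested, 0 rose and 0 fell. None of 3 lymphocyte genes on the array had enough values to test. Scaling mattered as well: when each array was centred on its median, the median of all genes at 72 h moved from -0.07 to 0.04 (log2) and all genes split into 2248 higher and 1701 lower in place of 1576 and 2493. The members then split into 4 higher and 26 lower at 72 h. Their median at 72 h was -0.16, so their fall was smaller but remained below the shifted centre. At 48 h centring gave 7 higher and 17 lower members, and the split of all genes is not given for that time. The part of the cell markers in the members' fall was not tested.

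A few members ran against the rest. Nop53, a 60S factor that draws the exosome to its target, fell at every time from 4 h on. It read 222, 233, 212, 214 and 209 with EE at 8 h and 398, 520.2, 524, 510 and 449 in controls, a difference of -1.03 ± 0.11 (2.05-fold lower, adjusted p = 5.4e-12). All EE arrays lay below all controls at 8 h, and at 24 h too, when EE arrays read 251, 472, 295, 269 and 230 and controls 654 to 704. Dhx57, a helicase of little-known role, fell at 4 and 8 h as well and at every later time, by 0.71 ± 0.09 at 72 h (22.4 to 46.3 against 62.5 to 90.3). Its call at 4 h, a difference of -0.21 with a limma-type adjusted p of 0.046, was lost in 5 of 10 alternatives and without 1 array for 6 of the 10 arrays. Nol3 fell early and rose late, with 36.3, 31.1, 37.7, 31.8 and 34.9 against 64.03, 53.1, 64.4, 57.4 and 58.7 at 8 h and 105, 84.3, 105, 96.2 and 113 against 53.2, 42.2, 42.97, 60.3 and 51.7 at 24 h. Its difference turned from -0.47 to 0.70, a change of 1.18, while the effect of EE shrank in 48 of 66 members between these times. Nop10 rose from 8 h through 72 h, with 0.62 ± 0.07 at 24 h, and Polr1d rose at 48 and 72 h, by 0.24 and 0.31. Quantile normalisation ended the calls of Nop10 at 72 h and Polr1d at 48 h. Ddx39a rose at 8, 24, 28 and 48 h.

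Control uteri were not level over time. Of 65 members 25 differed between control times, against 32.8% of genes. Tsr1 controls read 177 ± 23.9 (SD, n = 5) at 2 h, 126 ± 7.08 at 4 h and 186 ± 26.1 at 72 h, and Gnl3 controls 169 ± 15.8, 135 ± 15.6 and 177 ± 21.8. Nop53 controls read 384 ± 47.7 at 2 h, 678 ± 23.1 at 24 h and 514 ± 132 at 72 h. Ddx6, a helicase of messenger RNA decay, was at 78.8 ± 15.2 at 4 h and 152 ± 12.3 at 48 h in controls. The low levels of Gnl3 at 72 h with EE, 110 ± 14.4, were thus set against controls that were higher than at 4 to 28 h.

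The pituitary, which also carries estrogen receptors, showed few calls. At 4 h 5 of 61 members rose and none fell, against 1.06% and 0.427% of genes: Nop56, Gnl3, Fbl, Utp4 and Nolc1, each of which also rose in the uterus. Nop56 read 522, 500.0 and 532 with EE and 251, 252 and 194 in controls, a difference of 1.07 ± 0.11 (2.10-fold, n = 3 and 3, adjusted p = 9.5e-07). Its groups were far apart, and it rose again at 8 h, by 0.85, and at 72 h, by 0.43 ± 0.11, where it was the only member called of 61, against 1.75% of genes that rose and 0.911% that fell. Gnl3 read 251, 325 and 279 against 180, 194 and 193 at 4 h, a difference of 0.52 ± 0.11 (adjusted p = 0.0076). Fbl rose by 0.49, with 173 to 196.5 against 111 to 130, Utp4 by 0.39 and Nolc1 by 0.36. At 8 h 3 of 58 rose, Nop56, Nop16 (0.44) and Gnl3 (0.39), and none fell, against 1.75% and 1.84% of genes. The groups did not overlap, with EE higher, for 17 of 61 members at 4 h, against 7.37% of genes.

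At 24 and 48 h none of 63 members passed in the pituitary by the limma-type test, where 4 and 5 had an unadjusted p under 0.05 and 0.103% and 0.294% of all genes passed. At 4 h the calls of Nop56 and Fbl held without any 1 array. That of Nolc1 was lost without each of the 6 arrays, that of Utp4 without 3 of them and that of Gnl3 without 2. The other probe set of Nolc1 did not pass, at 0.34. The call of Gnl3 at 8 h was lost in 4 of 10 alternatives and without 4 of the 6 arrays. The count at 4 h was 2 without the EE array numbered 21, and 3 without control array 16 or 17 or EE array 23. At 8 h it was 1 without control array 28 or EE array 34 and 5 without EE array 33, and at 72 h Nop56 was no longer called without control array 73 or 76 or EE array 81 or 83. With only the groups compared in the fit, 1 member passed at 4 h and 1 at 8 h. Over all pituitary times the effect changed in 1 of 58 members, Nop56, against 1.11% of genes, and no control level differed between times among 59 members tested, against 1.6% of genes; 12 of the 59 had an unadjusted p under 0.05.

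The effect of EE was larger in the uterus than in the pituitary for 30 of 60 members at 4 h and smaller for 2, against 15.3% and 18.6% of genes. At 8 h the counts were 41 and 2 of 58, against 22.6% and 25.5%. Nop58, Tsr1 and Trmt61a differed most between the tissues at 4 h, by 1.47 ± 0.13, 1.45 ± 0.12 and 1.93 ± 0.20 (log2), and none of them passed in the pituitary. Trmt61a read 46.4, 29.4 and 59.8 in the EE pituitary at 4 h and 35.2 and 39.2 on the 2 control arrays with a value, against 353 to 411 in the EE uterus. Nop56, the member with the largest rise in the pituitary, still rose more in the uterus, by 0.67 ± 0.17 at 4 h (adjusted p = 0.00095). At 72 h the uterus lay below the pituitary in effect for 24 of 57 members and above for 1, Nol3, against 24.2% and 14.4% of genes. At 24 h the uterus was higher in effect for 12 of 62 members and lower for 11 (17.8% and 22.3% of genes), and at 48 h higher for 2 of 61 and lower for 15 (15% and 21.4%). Across 60 members the effects at 4 h in the 2 tissues had a Pearson r of 0.612, and at 72 h 0.086 across 57. The values over all genes are not given here.

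**Figure D5:**
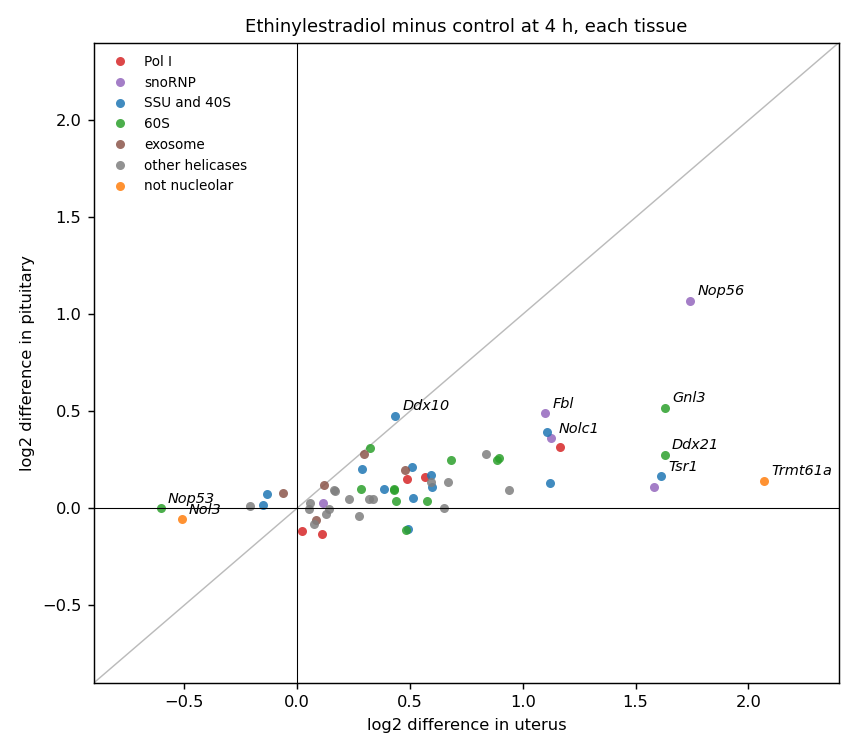
Log2 difference between ethinylestradiol and control at 4 h in the uterus (x) and the pituitary (y), 1 point per gene tested in both, coloured by role, with the line of equal difference. Most points lie below the line near a pituitary difference of 0, and Nop56 stands apart with 1.74 and 1.07.

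Ribosome assembly factors outside the set were counted in the same way. Of 96 such genes listed by known role, 63 are on the array. In the uterus 11 of 59 tested rose and 0 fell at 2 h, against 4.02% and 2.37% of all genes. At 4 h 43 of 58 rose and 1 fell (23.6% and 34.5% of genes), and at 8 h 50 of 59 rose and 1 fell (28.9% and 35.5%). At 24 h 16 of 58 rose and 7 fell (24.9% and 34.4%), and at 28 h 33 of 58 rose and 2 fell (28.5% and 34.3%). At 48 h 3 of 57 rose and 18 fell (24.2% and 33%), and at 72 h 3 of 56 rose and 28 fell (23.3% and 36.9%). Mrto4, a factor of the 60S stalk, rose by 2.03 ± 0.10 at 8 h and by 1.02 at 28 h. Rrs1 and Brix1, of early 60S assembly, rose by 1.38 and 1.17 at 8 h, and Rcl1, a factor of small subunit RNA processing, by 0.98. In the pituitary 4 of 57 rose at 4 h and 3 of 57 at 8 h (1.06% and 1.75% of genes), none fell at either time, and none passed at 24, 48 or 72 h. Since the list was drawn up with earlier results of these data known, it is no independent evidence of direction.

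Each array had a value for 9318 to 10677 of 15923 probe sets, with medians of 94.6 to 108 in the uterus and 103 to 110 in the pituitary, and no pair of arrays was identical. The tissue labels fitted their markers: Hoxa10 and Hoxa11 had values on all 70 uterus arrays and on none of the pituitary, and Prl, Gh1, Cga and Fshb on all 30 pituitary arrays and on none of the uterus. Pomc, the corticotroph hormone gene, had a value on 1 of 30 pituitary arrays. The 3′ to 5′ difference of Actb was 0.07 to 1.09 in the uterus and 1.23 to 1.86 in the pituitary. The number of arrays, 5 or 3 a group, limits the precision.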

How the data were processed

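RNA of the uterus was measured on 70 Affymetrix RAE230A arrays and RNA of the pituitary gland on 30. The values deposited by the authors are linear intensities, 37.2% of them blank; the sources used here do not give the summarisation, the scaling or the reason for blanks, and nothing was normalised further. Here log2(intensity + 30.4) was taken, the offset being the 10th percentile of all values. Each gene was read on its probe set with the highest mean. Group means without blanks were compared with a variance pooled over all groups of a tissue and moderated by limma's squeezeVar (limma 3.58.1, R 4.3.3), and p-values were adjusted by Benjamini-Hochberg over all genes tested. A gene needed at least 3 of 5 values in each uterus group, or 2 of 3 in the pituitary. Folds are ratios of (intensity + 30.4), and ± is the SE unless SD is given. The fit was tested on simulated data. Symbols came from the platform annotation, updated through RefSeq GRCr8 for 12748 of 12783 single-gene probe sets; 312 probe sets of several genes and 2771 unnamed ones were not used for members. Genes named are 12 set by name, the 5 largest rises and falls per comparison, the extremes of each role at 8 h, the 4 smallest adjusted p per difference and others named after their values were seen. Members and lists were chosen with earlier results of these data known. Alternatives were other offsets, centring, quantile normalisation, filters, filled blanks, other probe sets, fits of the compared groups alone and leaving out each array. Running numbers are shared between uterus and pituitary arrays at a time and were not used to pair them (8 of 27 numbers correlated above 0.1). Whether equal numbers mark the same animal is not stated.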

Additional observations from a re-analysis of the deposited data

Results flagged for a closer look

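On 6 of 149 gene and group combinations tested 1 array lay far from the other 4, a number that chance alone gives at about 1 in 20. All were uterus arrays. With EE, Fbl read 386.5 on array 46 at 24 h against 314 to 330 on the others, Nop58 171.3 on array 68 at 48 h against 193 to 201, Gnl3 109.2 on array 44 at 24 h against 133 to 138, and Mybbp1a 557.8 on array 24 at 4 h against 503 to 512. In controls, Dkc1 read 178.5 on array 5 at 2 h against 120 to 135, and Gnl3 112.4 on array 37 at 24 h against 129 to 136.

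The effect of EE differed between groups of arrays for many members, by a test of the difference itself. It differed between uterus times in 58 of 60 members (81.7% of all genes), and between pituitary times in 1 of 58, Nop56 (1.11%). Between neighbouring uterus times it differed in 44 of 65 members from 2 to 4 h (33% of all genes). From 4 to 8 h it differed in 9 of 65 (19.6%) and from 8 to 24 h in 50 of 66 (46.3%). From 24 to 28 h it differed in 19 of 66 (8.29%) and from 28 to 48 h in 32 of 64 (26.8%). Between uterus and pituitary it differed in 32 of 60 members at 4 h (33.8% of all genes) and 43 of 58 at 8 h (48.1%). At 24 h it differed in 23 of 62 (40.1%), at 48 h in 17 of 61 (36.4%) and at 72 h in 25 of 57 (38.6%). From 4 to 8 h, and between the tissues at 24 and 48 h, the members' shares were below those of all genes (13.8%, 37.1% and 27.9%).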

How the results depend on the processing

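Under the 10 alternative settings, which include the probe set with the most values but not each other probe set, and without any 1 array, no call of EE against control turned to the other direction. Another probe set of the same gene did turn 2 of the 20 calls that had one, Nolc1 at 24 h (0.56 in place of -0.22) and Ddx5 at 28 h (-0.39 in place of 0.45), and 5 others kept their direction without passing. A call was counted as held where it passed under every one of the 10 settings that could test the gene. Some genes with blanks could not be tested under all 10, such as Ddx31 (8 settings) and Rrp9 (9) at 4 h in the uterus. So counted, 7 of 12 uterus calls held at 2 h, 45 of 49 at 4 h and 53 of 55 at 8 h. Later in the uterus 24 of 33 held at 24 h, 32 of 34 at 28 h, 21 of 30 at 48 h and 28 of 40 at 72 h. Of the pituitary calls 1 of 5 held at 4 h, 1 of 3 at 8 h and 0 of 1 at 72 h. With only the groups compared in the fit, 7 members were called at 2 h in the uterus, 1 at 4 h and 1 at 8 h in the pituitary. With an offset of 100, 6 were called at 8 h in the pituitary, 2 for the effect between pituitary times and 1 between pituitary control times, the latter also 1 with blanks filled. Centred arrays gave 5 at 8 h in the pituitary and quantile normalisation 0 at 72 h. The cause of these changes was not tested.

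Leaving out 1 array gave 2 to 4 calls at 4 h in the pituitary, 1 to 5 at 8 h, 0 to 1 at 72 h, 1 to 3 for the effect between pituitary times, 0 to 1 between pituitary control times and 0 to 2 for the uterus effect at 72 h against 48 h (1 without control array 78, EE array 68 at 48 h or EE array 81, and 2 without EE array 67 at 48 h). The effect between pituitary times gave 3 without control array 61 at 48 h. In the other comparisons the counts stayed within 1.5 times the full count.

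Uterus and pituitary arrays of a time share running numbers, 27 in all, whose deviations correlated between -0.07 and 0.16 (median 0.07). These values cannot show whether equal numbers mark the same animal, since different organs of an animal need not deviate together. The number was not used as a pairing in the main comparison. With the number as a replicate block, fewer members differed between the tissues. The counts were 24, 35, 12, 7 and 23 at 4, 8, 24, 48 and 72 h, in place of 32, 43, 23, 17 and 25. The block keeps only numbers present in both tissues, and the shares of all genes under it are not given here. Control and EE arrays share no number.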

Other observations

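Of the 9 genes that matched by symbol but had too few values, Rrp15, a factor of 60S assembly, had a value on 0 of 5 control arrays and 5 of 5 EE arrays of the uterus at 4 and at 8 h, at 106 to 145 and 131 to 165. In controls it had a value on 4 of 5 arrays at 72 h, at 67.02 to 99.3, where none of the EE arrays had one. Polr1g, a polymerase I subunit, had a value on 4 and 3 EE arrays at 4 and 8 h (41.6 to 63.1 and 42.9 to 55.2) and on no other uterus array. Ddx56, a nucleolar helicase, had a value on 1 EE array at 4 h, 2 at 8 h and 1 at 28 h, and on no other uterus array. Blank cells hide such genes from every count above.

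Npm1, nucleophosmin, was measured only by 3 probe sets shared with Npm1-ps9, whose signals cannot be told apart. The brightest read 1491 ± 65.9 (SD, n = 5) with EE and 1116 ± 93.7 in controls at 8 h in the uterus, a log2 difference of 0.41. A dimmer one read 173 ± 27.1 against 97.0 ± 13.99, a difference of 0.67, and the other differed by 0.20. These values were not tested.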
